A study of Rattus norvegicus with 6 samples.

Results

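Mitochondria keep a small circular genome of their own, which encodes core subunits of the respiratory chain and of ATP synthase. Its genes are transcribed as long precursors that are cut into shorter RNAs, so their transcripts arise together although their final levels can differ. Spinal cord, with its dense demand for ATP in neurons and glia, is a tissue in which such transcripts are abundant. Here 8 of them were followed in rats whose ancestors differed: the catalytic core of cytochrome c oxidase (Mt-co1, Mt-co2 and Mt-co3, complex IV), cytochrome b of complex III (Mt-cyb), subunits a and A6L of ATP synthase (Mt-atp6 and Mt-atp8) and the complex I subunits Mt-nd3 and Mt-nd4l.

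The 8 transcripts were chosen by their length and by their mean TPM, a length-corrected abundance scaled to the same total in each library. A row was taken when its length equalled that of a rat mitochondrial gene and its mean TPM over 6 libraries was at least 3000. This gave 8 of the 40808 rows. The rule used no difference between lineages. The deposited files carry Ensembl transcript identifiers without gene symbols, and the reference table used here lists 0 mitochondrial genes and 0 Ensembl identifiers, so every name below rests on length and abundance alone. For each of the 8 lengths exactly 1 row passed the minimum. The member nearest to it was Mt-nd4l at 6301 TPM, and the most abundant row of any of these lengths that stayed below it, of 348 bases like Mt-nd3, had 656 TPM. The smallest gap was thus at Mt-nd3, at 34.8 times the next row of its length, and the widest at Mt-co3, at 15317 times. In all, 37 rows reached the minimum.

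The identifiers were ENSRNOT00000050156.3 for Mt-co1 (1545 bases), ENSRNOT00000043693.3 for Mt-co2 (684 bases) and ENSRNOT00000049683.3 for Mt-co3 (784 bases). Mt-cyb was ENSRNOT00000042098.3 (1143 bases). Mt-atp6 was ENSRNOT00000046108.3 (681 bases) and Mt-atp8 was ENSRNOT00000046201.3 (204 bases), from a pair of genes whose reading frames overlap in mammals. Mt-nd3 was ENSRNOT00000041241.3 (348 bases) and Mt-nd4l was ENSRNOT00000044582.3 (297 bases). Their positions and sequences were not analysed here, and whether each row stands for a separate RNA molecule was not tested.

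The animals were Sprague-Dawley rats, an outbred stock, of the F3 generation. Spinal cord RNA was sequenced in 3 libraries of the F0-control lineage and 3 of the F0-folate lineage, whose titles read folic-acid-treated. The labels give no dose, sex, age, litter, cord level or batch, and do not say whether a library holds 1 rat or several. The p-values therefore measure only the spread between these libraries, which may be technical. The series title names neuronal regeneration as the trait of interest. Totals per library ran from 16505715 to 21131429 expected counts, the reads that RSEM assigned to each row, and overlapped between lineages. Markers of neurons, glia, blood or muscle could not be checked, because no row could be tied to a symbol.

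Together the 8 transcripts took 8.70 ± 1.80% of all counts (SD, n = 6), and this share did not separate the lineages. In the control lineage it was 7.87%, 8.69% and 10.5% in replicates 1, 2 and 3, a mean of 9.02 ± 1.34% (SD, n = 3). In the folate lineage it was 7.18%, 11.2% and 6.76%, a mean of 8.38 ± 2.44% (SD, n = 3). The highest and the lowest library both belonged to the folate lineage, and the control libraries lay between them. The 95% Wilson intervals of these shares were at most 0.0288 percentage points wide. They cover counting error only, and the protocol names no molecular identifiers, so even that may be understated. The mean share was lower by 0.644 percentage points in the folate lineage, less than the SD of either group. Without control replicate 3 the difference was 0.0936 and without folate replicate 3 it was 0.165, both with the folate lineage higher, while without folate replicate 2 it was -2.05. In bulk tissue, fewer cells of a type and less RNA per cell cannot be told apart, and neither can fewer mitochondria and less RNA in each.

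**Figure D1:**
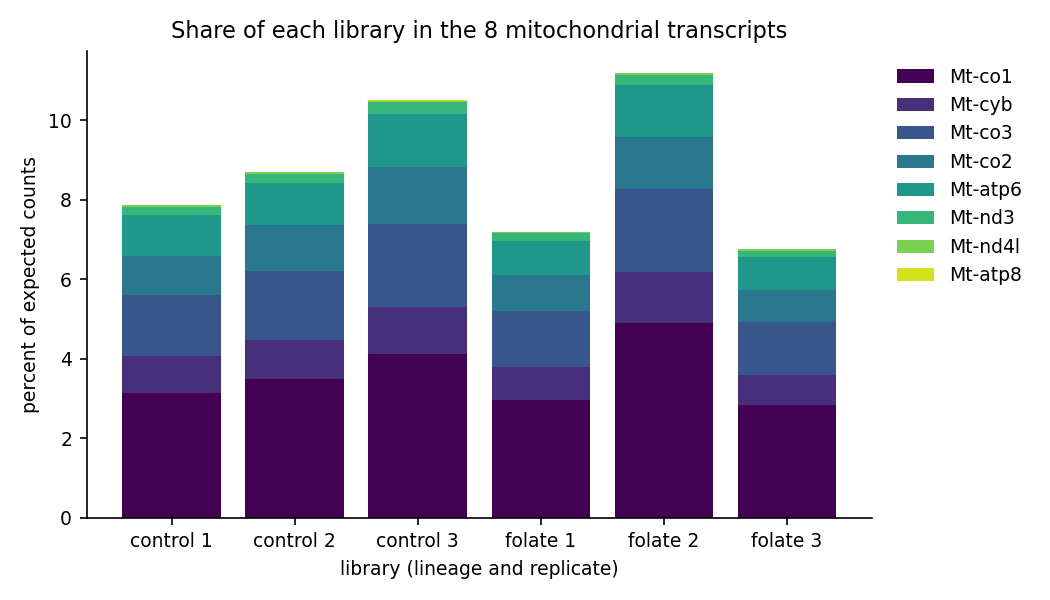
Percent of expected counts in the 8 mitochondrial transcripts, stacked by transcript, for each of the 6 libraries. The total is highest in folate replicate 2 (11.2%) and lowest in folate replicate 3 (6.76%), with the 3 control libraries between them.

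The complex IV transcripts supplied most of these counts. Mt-co1, which carries the haem and copper centre where oxygen is reduced, stood at 30760, 33700 and 43351 CPM (counts scaled to library size with TMM factors) in control replicates 1, 2 and 3. In the folate lineage it stood at 29409, 51242 and 27355 CPM. Folate replicate 2 was above every control library and the other two folate libraries were below every one, so the means were nearly equal, at 35937 ± 6587 and 36002 ± 13238 CPM (SD, n = 3 each). The log2 fold change, folate lineage over control lineage, was 0.0026 ± 0.27 (standard error, adjusted p = 0.999 in edgeR's quasi-likelihood test). Its sign was negative in 9 of the 10 alternatives that kept all libraries, at -0.00095 to -0.0419, all far inside that error.

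Mt-co2, the subunit that receives electrons from cytochrome c, stood at 9749, 11154 and 15153 CPM in the control libraries and at 8912, 13588 and 7838 CPM in the folate libraries. The lineages overlapped through folate replicate 2. On the log2 scale the estimate was -0.25 ± 0.25 (standard error, edgeR adjusted p = 0.802). Mt-co3, the third subunit of the core, stood at 15096, 16951 and 21974 CPM in the control libraries and at 14031, 21985 and 12724 CPM in the folate libraries. For Mt-co3 folate replicate 2 was the highest library, barely above control replicate 3, and folate replicate 3 was the lowest. The log2 fold change of Mt-co3 was -0.15 ± 0.24 (standard error, edgeR adjusted p = 0.889).

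Complex III was represented by Mt-cyb, the subunit that binds both quinone sites. It stood at 9109, 9529 and 12500 CPM in the control lineage and at 8141, 13383 and 7445 CPM in the folate lineage, the same ranking of libraries as for Mt-co1. The log2 fold change was -0.10 ± 0.25 (standard error, edgeR adjusted p = 0.927).

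Of the ATP synthase and complex I transcripts, Mt-atp6, Mt-nd3 and Mt-nd4l had control replicate 3 and folate replicate 2 as their highest libraries, like the complex IV transcripts. Mt-atp6, part of the proton channel, stood at 9996, 10306 and 14035 CPM in the control lineage and at 8658, 13802 and 8096 CPM in the folate lineage, a log2 fold change of -0.17 ± 0.24 (standard error, edgeR adjusted p = 0.876). Mt-nd3, a membrane subunit of complex I, stood at 2109, 2222 and 3110 CPM against 1806, 2486 and 1487 CPM. Its log2 fold change was -0.36 ± 0.23 (standard error, edgeR adjusted p = 0.672). Mt-nd4l, also in the membrane arm of complex I, stood at 345, 281 and 398 CPM against 246, 452 and 268 CPM, a log2 fold change of -0.08 ± 0.25 (standard error, edgeR adjusted p = 0.942).

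Mt-atp8, a short membrane subunit of ATP synthase, departed from the ranking. It stood at 141, 90.1 and 141 CPM in the control lineage and at 69.3, 104 and 97.9 CPM in the folate lineage. Control replicates 1 and 3 were the highest libraries, while control replicate 2 lay below both folate replicates 2 and 3, so the lineages overlapped. Its log2 fold change of -0.46 ± 0.22 (standard error) was the lowest of the 8, at an unadjusted p of 0.0777 (edgeR adjusted p = 0.578). It rested on 1404 to 2829 counts per library, against 467214 to 901855 for Mt-co1.

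**Figure D2:**
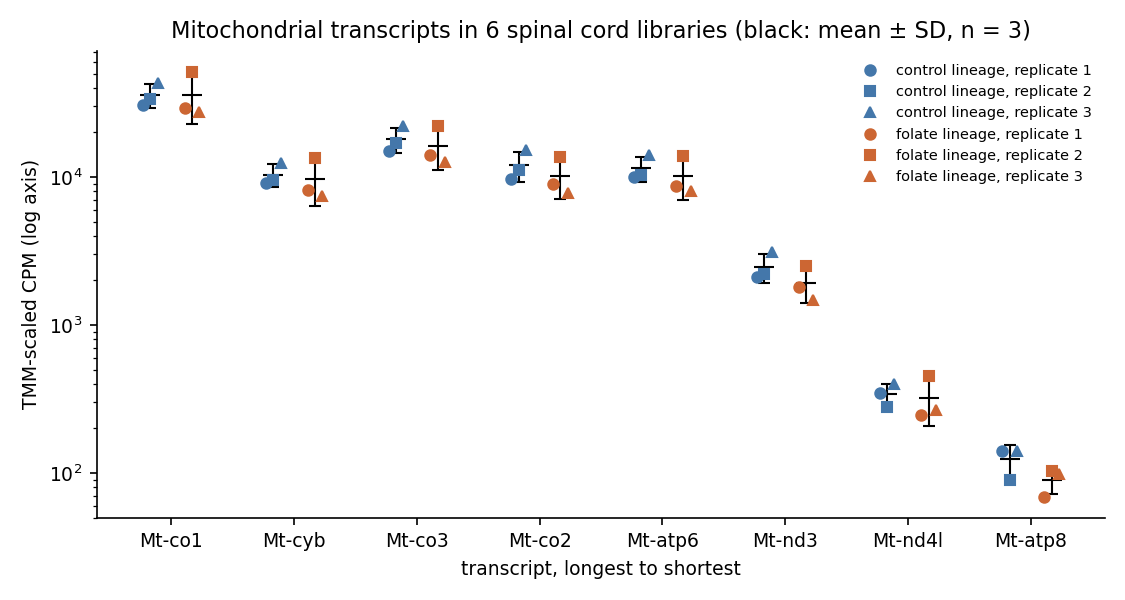
TMM-scaled CPM on a log axis for each transcript and library, with the mean and SD of 3 libraries per lineage in black. Folate replicate 2 (orange squares) sits above the other folate libraries for all 8 transcripts, and the lineages overlap for each.

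None of the 8 transcripts passed the threshold of an adjusted p under 0.05 in edgeR. Over all 17433 rows tested, 0.0115% did, so a count of 0 is also what that background gives. At an unadjusted p under 0.05 the members again numbered 0, against 9.66% of all rows. DESeq2 gave 1 member at that level, Mt-atp8 (adjusted p = 0.411), against 1600 of all 17433 rows. The groups overlapped in TMM-scaled CPM for all 8, and 16.2% of all rows had groups that did not overlap. With only 8 rows that share libraries, a count of 0 does not set the members apart from the 9.66% or the 16.2%. The estimate was below 0 for 7 of 8 members and for 50.4% of all rows. The median log2 fold change was -0.16 over the members and -0.0027 over all rows. These 8 estimates are not 8 separate observations, because they share the same libraries and the same precursors.

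The estimates depended on single libraries. Without folate replicate 2 all 8 lay between -0.59 and -0.34, with 3 unadjusted p-values under 0.05 (Mt-co2, Mt-nd3 and Mt-nd4l) and a smallest adjusted p of 0.765 in edgeR. Over all rows of that fit, 1176 of 18009 had an unadjusted p under 0.05. Without control replicate 3 only 3 of 8 were below 0, with a median of 0.0121, and without folate replicate 3 only 4 of 8, with a median of -0.0134. Without folate replicate 1 the count was 5 of 8 and the median -0.0490. Leaving out control replicate 1 or 2 gave 8 of 8 below 0, with medians of -0.26 and -0.22. Without control replicate 2 Mt-atp8 stood at -0.65, with an unadjusted p of 0.0091 (edgeR adjusted p = 0.545). In that fit 1400 of 17956 rows had an unadjusted p under 0.05.

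The members varied widely between libraries of the same lineage. The biological coefficient of variation estimated by edgeR was 19.5% for Mt-atp8, the lowest, and 22.2% for Mt-nd4l, the highest. Among the 1536 tested rows at 100 CPM or more the median was 10.3% and the 95th percentile 18.1%, so each member lay above at least 96.0% of these rows, many of which are less abundant than the longer members. From the lowest library to the highest, CPM per library total differed 1.73-fold for Mt-co1 and 2.06-fold for Mt-atp8. Folate replicate 2 was the highest library for 4 of the 8 transcripts and the second for 3, and control replicate 3 was the highest for 3 and the second for 5. At the other end, folate replicate 3 was the lowest for 6 and folate replicate 1 for 2.

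Most of that variation was common to the set. The SD of log2 CPM over 6 libraries was 0.28 for Mt-atp6 and 0.31 for Mt-co1. Measured against the mean of the 8 in the same library, it dropped to 0.0371 for Mt-atp6, 0.0696 for Mt-cyb and 0.0767 for Mt-co3. That mean includes the member itself, which tends to lower the SD. For Mt-co1 it was 0.13, for Mt-nd3 0.13 and for Mt-nd4l 0.12. For Mt-atp8 it stayed the largest, at 0.32 against a total SD of 0.38. On the TPM scale, where RSEM corrects row lengths in each library, that SD was 0.17 for Mt-atp8.

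Relative to Mt-co1, several members were lower in every folate library than in every control library. This comparison was chosen after the values were seen. The ratio of Mt-co2 to Mt-co1 in counts was 0.317 to 0.350 in the control lineage and 0.265 to 0.303 in the folate lineage. For Mt-co3 it was 0.491 to 0.507 against 0.429 to 0.477, for Mt-atp6 0.306 to 0.325 against 0.269 to 0.296, and for Mt-cyb 0.283 to 0.296 against 0.261 to 0.277. The Mt-nd3 ratio was 0.0659 to 0.0718 against 0.0485 to 0.0614. Thus the lineages did not overlap for 5 of 7 members, and they overlapped for Mt-nd4l and Mt-atp8.

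Mean log2 differences of the 5 ratios ran from -0.0984 for Mt-cyb to -0.33 for Mt-nd3. Each had an exact two-sided permutation p of 0.1, the smallest that 3 libraries against 3 allow, and 0.14 after adjustment over the 7 ratios. In TPM, 4 of 7 ratios were lower in all folate libraries, at log2 differences of -0.0923 for Mt-cyb, -0.11 for Mt-co3, -0.13 for Mt-atp6 and -0.20 for Mt-co2. Mt-nd3 overlapped on that scale. Of all 17432 tested rows other than Mt-co1, the 7 members included, 1.34% had such a ratio to Mt-co1 in counts and 1.27% in TPM. That background is not matched. The SD of the log2 ratio to Mt-co1 over 6 libraries was 0.0640 for Mt-cyb, 0.0893 for Mt-co3, 0.10 for Mt-atp6, 0.14 for Mt-co2, 0.16 for Mt-nd4l, 0.22 for Mt-nd3 and 0.43 for Mt-atp8. Its median was 0.36 over the 1530 other rows at 100 CPM or more, a value that Mt-atp8 alone of the 7 members exceeded. All the ratios also share 1 denominator, Mt-co1, whose log2 fold change in counts was the highest of the 8. The lower direction of the 7 mean count ratios therefore follows from that choice of denominator. As a share of the 8 transcripts' counts, Mt-co1 was 39.8%, 40.0% and 39.2% in the control libraries and 41.3%, 43.8% and 41.9% in the folate libraries. As a share of their TPM it overlapped, at 15.6%, 16.3% and 15.7% against 15.8%, 17.5% and 16.97% (exact two-sided permutation p = 0.2).

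**Figure D3:**
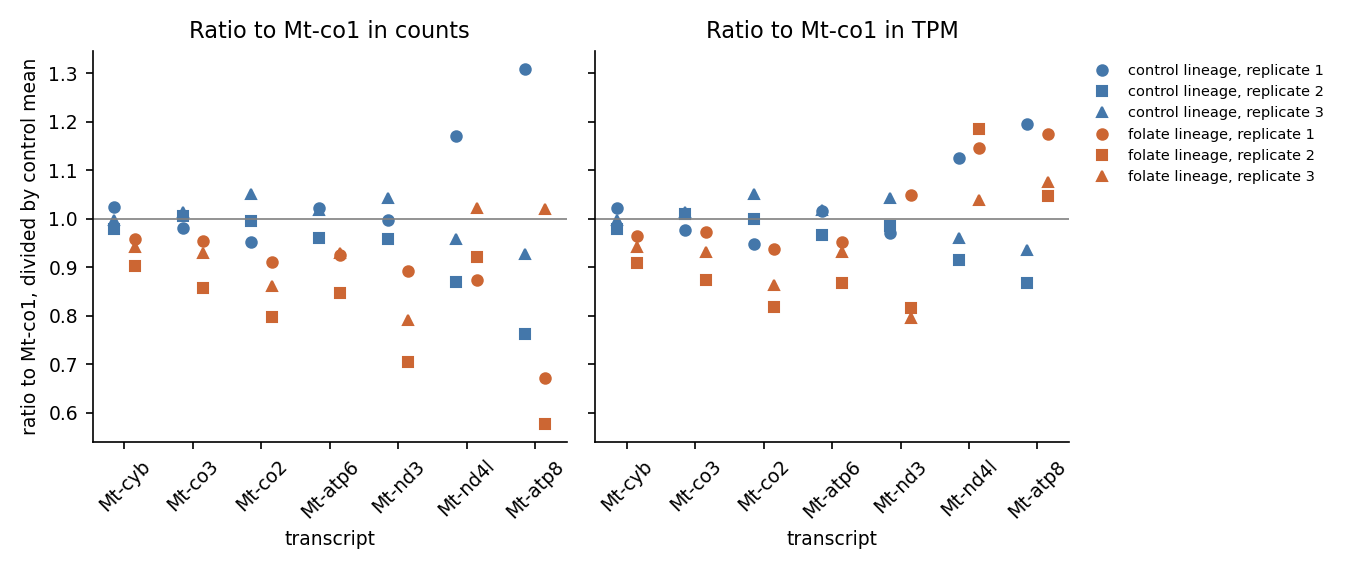
Ratio of each transcript to Mt-co1 in the same library, divided by the control mean, from counts (left) and from TPM (right), with 1 point per library. In counts the folate libraries lie below all control libraries for Mt-cyb, Mt-co3, Mt-co2, Mt-atp6 and Mt-nd3. In TPM this holds for the first 4, and the values of Mt-nd4l and Mt-atp8 shift upward.

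The length correction made by RSEM differed between the libraries. The bases that RSEM subtracts from a long transcript to give its effective length were 232.9, 239.9 and 236.5 in control replicates 1, 2 and 3, and 255.3, 253.3 and 237.3 in the folate replicates. Folate replicates 1 and 2 thus had the largest correction. Reads were single ends, so it is a value of the RSEM model and not a measured fragment length. Folate replicate 3 lay within the control range. Its count ratios to Mt-co1 were 0.287 for Mt-co2, 0.465 for Mt-co3, 0.296 for Mt-atp6, 0.272 for Mt-cyb and 0.0543 for Mt-nd3. Whether fragment length, which was not measured, accounts for the lower ratios was not tested. A long transcript such as Mt-co1 lost little, with an effective length of 1290 to 1312 bases. For Mt-nd3 it was 94.4 to 116 bases, for Mt-nd4l 48.5 to 67.3 and for Mt-atp8 only 3.21 to 6.48.

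The direction of the shortest members depended on this correction. With effective length as an offset in edgeR, Mt-atp8 had a log2 fold change of 0.14 ± 0.24 and Mt-nd4l of 0.20 ± 0.30 (standard errors), where counts alone gave -0.46 and -0.08. For Mt-nd3 the estimate went from -0.36 to -0.20. The 5 members over 600 bases changed by less. Mt-co2 went from -0.25 to -0.22, and Mt-co1 from 0.0026 to 0.0028. The smallest adjusted p of a member with the offset was 0.846 in edgeR. The limma test on log2(TPM + 1) placed Mt-atp8 at 0.14 and Mt-nd4l at 0.16, with no adjusted p of a member under 0.937.

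**Figure D4:**
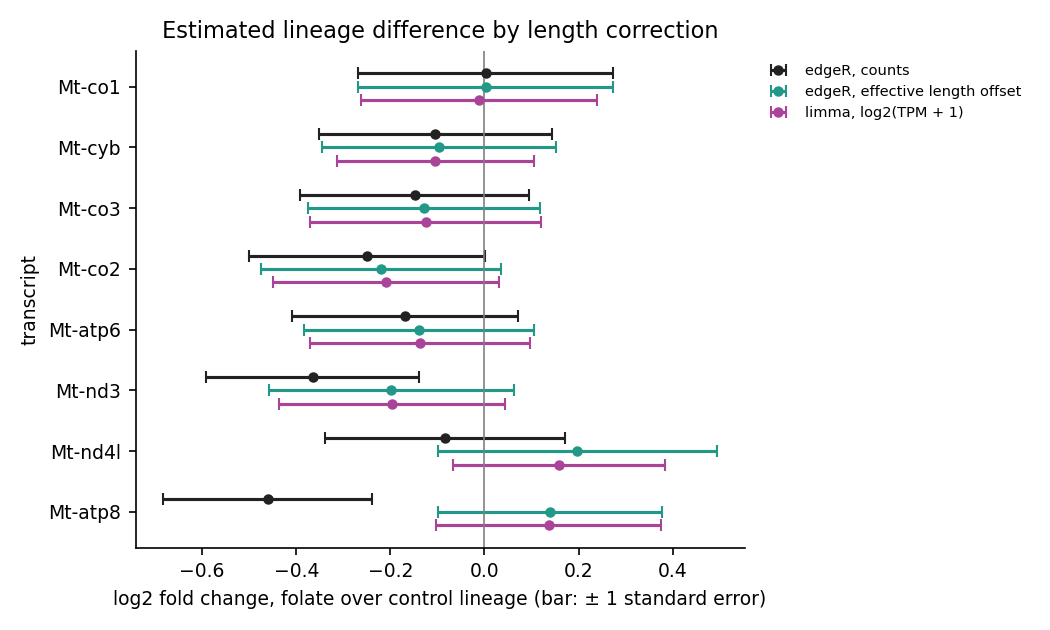
Log2 fold change of each transcript, folate lineage over control lineage, with 1 standard error, from counts, from counts with an effective length offset, and from log2(TPM + 1). The 3 estimates lie close together for the long transcripts, and for Mt-atp8 they run from -0.46 in counts to 0.14 with the offset.

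Levels per length put the complex IV transcripts and Mt-atp6 on top. In TPM, over 6 libraries, Mt-co3 stood at 34871 ± 5302, Mt-co1 at 30411 ± 5423, Mt-co2 at 27594 ± 4744 and Mt-atp6 at 27196 ± 4166 (SD, n = 6 each). Mt-atp8 at 24697 ± 4446 and Mt-nd3 at 22845 ± 3961 followed. Neighbours among these 6 were closer than 1 SD, and Mt-co2 exceeded Mt-atp6 in only 3 of 6 libraries, although Mt-co3 exceeded Mt-co1 in all 6. Mt-cyb at 12263 ± 1939 and Mt-nd4l at 6301 ± 1497 (SD, n = 6 each) were set apart, with ranges that did not meet those of their neighbours. Since TPM chose the members, these levels are a description.

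By lineage the TPM means were 36186 ± 3655 and 33557 ± 7194 for Mt-co3 in the control and folate lineages. They were 30243 ± 2565 and 30579 ± 8176 for Mt-co1, and 12613 ± 1003 and 11913 ± 2832 for Mt-cyb (SD, n = 3 each). The folate SD was the larger for each. Mt-nd4l had 5863 ± 526 and 6739 ± 2179 TPM (SD, n = 3 each), again with the wider spread in the folate lineage.

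The place of the short transcripts in that order is not firm. Per kilobase of full length, Mt-co1 was highest, at 23099 ± 5151 CPM per kilobase, and Mt-co3 next, at 21689 ± 4291 (SD, n = 6 each). Mt-nd3 stood at 6286 ± 1399, Mt-nd4l at 1109 ± 234 and Mt-atp8 at 524 ± 134 (SD, n = 6 each). On this scale Mt-atp8 was the lowest of the 8, and in TPM it was the fifth. Only Mt-co2, Mt-atp6 and Mt-nd3 kept the same rank under both corrections. Fragments longer than a transcript cannot be drawn from it, so full length understates short transcripts, whereas an effective length of a few bases makes TPM sensitive to small errors in it.

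**Figure D5:**
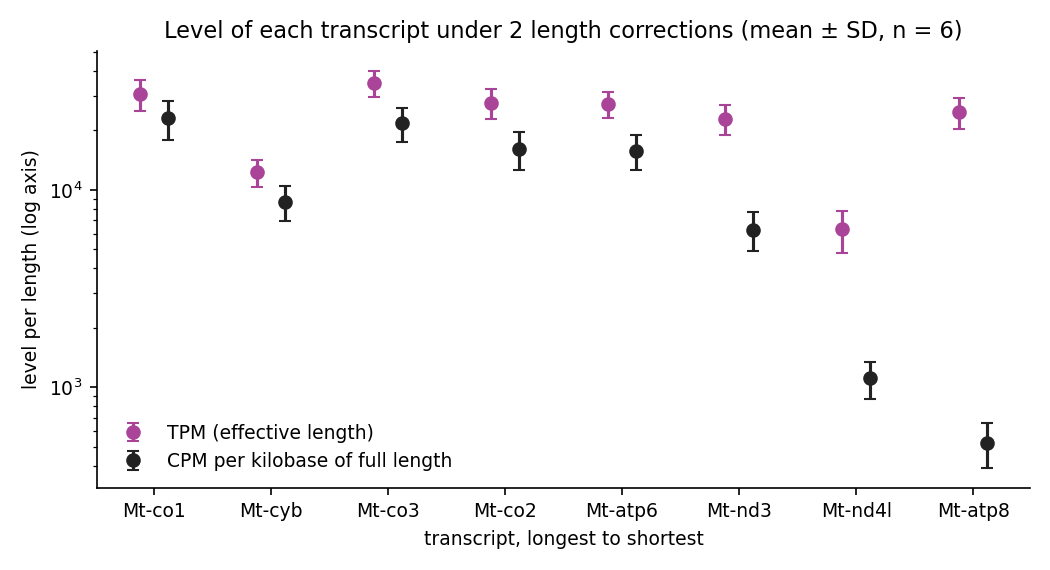
Mean and SD over 6 libraries of the level of each transcript on a log axis, as TPM and as CPM per kilobase of full length. The scales lie closer for transcripts over 600 bases, though Mt-co2 is at 27594 TPM and 16055 CPM per kilobase. They part most for the 3 under 400 bases, where Mt-atp8 is at 24697 TPM but at 524 CPM per kilobase.

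Among the 99 other rows with a mean of at least 1000 TPM, the 3 whose pattern over the 6 libraries was most like the members' mean log2(TPM + 1) were taken. They were ENSRNOT00000047550.4 (955 bases, Pearson r = 0.984), ENSRNOT00000042928.3 (1378 bases, r = 0.981) and ENSRNOT00000048767.3 (1830 bases, r = 0.864). The members themselves correlated with their own mean at 0.756 (Mt-atp8) to 0.987 (Mt-cyb). That mean includes each member, which raises these values, so they are not a like comparison with the 3 rows. These values describe 6 libraries that share depth and scaling. The first of the 3 rows stood at 10135, 10662 and 12257 TPM in the control lineage and 9570, 14424 and 9013 TPM in the folate lineage, with folate replicate 2 again highest. Their ratios to Mt-co1 were split: in counts the folate libraries were all lower for the rows of 1378 bases (0.193 to 0.200 against 0.206 to 0.221) and 1830 bases (0.0884 to 0.0995 against 0.105 to 0.118). For the row of 955 bases they overlapped (0.193 to 0.199 against 0.198 to 0.203). In TPM the folate ratios were again all lower for the rows of 1378 and 1830 bases and overlapped for the row of 955 bases. Mt-nd1, Mt-nd2, Mt-nd4, Mt-nd5, Mt-nd6, the mitochondrial rRNAs and the nuclear subunits of the chain were not identified here. No reference length or symbol was at hand for them. Whether the 3 rows above are among them is therefore not known.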

How the data were processed

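Per the submitters' processing notes, reads were handled with FastQC, STAR 2.7.0 and RSEM 1.3.1 on rn6, with settings not given in the sources used here. Per the labels' protocols, random-primed NuGen libraries were read as single ends on a HiSeq2500. The deposited expected counts are RSEM estimates per Ensembl transcript, and the deposited TPM and FPKM were scaled by the authors' RSEM run. Deposited length and effective length are in bases. Expected counts of 7 of the 8 members were whole in all 6 libraries (within 0.005). Mt-nd4l was fractional in 1.

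Counts were rounded, filtered with filterByExpr, scaled by TMM and tested across all 17433 rows in R 4.3.3 by the robust quasi-likelihood test of edgeR 4.0.16 (intercept and lineage, Benjamini-Hochberg). Standard errors are those implied by F. DESeq2 1.42.0, limma 3.58.1 (trend) and other scalings were alternatives. The fitting code was first checked on simulated counts, and every value given comes from the deposited libraries. Single ratios were tested by exact permutation. No 2 libraries of a lineage agreed within sampling noise (chi-square over its degrees of freedom was 19.1 to 37.9). The rule for named genes took the 8 members and the 3 rows most like them. The members and lists were chosen with earlier results of these data known. Lists of cell markers and nuclear partners could not be matched to rows.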

Additional observations from a re-analysis of the deposited data

How the results depend on the processing

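The count of 0 members called held in 10 alternatives with all libraries, in 6 that left out 1 library and at an adjusted p under 0.1. The smallest adjusted p of a member in any of them was 0.411 (DESeq2). Over all rows, 2 calls became 4 with no filter on low counts, 125 in DESeq2, 9, 11 and 6 in limma on log2(TPM + 1), log2(TPM + 0.1) and log2(TPM + 10), and 0 to 3 without 1 library (fewer libraries enter these fits). The cause of the other differences was not tested. The difference in summed share ran from -2.05 to 0.165 percentage points without 1 library.

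The sign of Mt-co1 turned with RLE factors (-0.00095), library totals only (-0.0037), scaling without the members (-0.0013), no filter (-0.0017), DESeq2 (-0.00095), limma at the 3 pseudocounts in the order above (-0.01254, -0.01254 and -0.01253) and the replicate block (-0.0419). Mt-nd4l and Mt-atp8 turned with the effective length offset (0.198 and 0.139) and in limma at the same pseudocounts (0.15821, 0.15822 and 0.15803 for Mt-nd4l, 0.13617, 0.13618 and 0.13613 for Mt-atp8). Without 1 library, log2 estimates ran from -0.34 to 0.17 for Mt-co1, -0.41 to 0.0525 for Mt-cyb, -0.43 to 0.0196 for Mt-co3, -0.45 to 0.0045 for Mt-atp6 and -0.41 to 0.0873 for Mt-nd4l. Mt-co2 (-0.52 to -0.0478), Mt-nd3 (-0.59 to -0.17) and Mt-atp8 (-0.65 to -0.29) kept their sign. The order of levels held for all 8 in FPKM and for 3 per kilobase of full length. The count of 5 members below the control ratio to Mt-co1 was 4 in TPM and 5 to 6 without 1 library, alternatives added after seeing the data.

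Replicate numbers 1 to 3 occur in both lineages. For libraries with the same number, the correlation of deviations from the group means was 0.0191, 0.0021 and -0.0680. They were not read as pairs, and only folate replicate 1 correlated best with the library of its own number in the other lineage. With a replicate block 4 rows and 0 members were called. At this n, differences of the size of the standard errors, 0.22 to 0.27 on the log2 scale, were not detectable. Larger estimates were not called either, such as Mt-atp8 at -0.46 (edgeR adjusted p = 0.578).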
